A study of Mus musculus with 45 samples.

Results

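The genes described here belong to the response of the endoplasmic reticulum (ER) to unfolded protein: Derl3, Hspa5, Sdf2l1, Creld2, Manf, Pdia4, Dnajb9, Hyou1, Ddit3 and Xbp1. They were chosen by name from the deposited table, and all 10 were found among its 22080 genes, each with 1 probe set. The choice was made after Derl3 had been seen to rise in liver under HCD+Gl-1 and under HCD+Sim, so the values of those 2 comparisons are given as a description, without a test. The series holds 45 Affymetrix mouse arrays, 15 from each of liver, kidney and brain, of male C57BL/6 mice, with 8 mice per diet. The mice were 7 weeks old when obtained and were sacrificed on day 43. The Control group ate the AIN-93 diet, and the HCD group ate it with 0.5% cholesterol. The other groups ate the HCD with an added agent. HCD+Gl-1 held 1.0% of a Ganoderma lucidum (a medicinal mushroom) extract from fruiting bodies grown on oak sawdust. HCD+Gl-2 held the extract of mushrooms grown on that substrate with 10 mM acetylsalicylic acid. HCD+Sim held simvastatin, an inhibitor of cholesterol synthesis, at 0.03% of the diet by weight. By the methods, pools A and B of a group hold RNA of different mice and pool C is their mixture, so its 3 arrays rest on 2 separate pools, and p-values measure the spread between such arrays.

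The ER folds proteins that are secreted or sit in membranes. When unfolded protein accumulates there, the sensors IRE1 (encoded by Ern1), PERK and ATF6 start the unfolded protein response. XBP1, activated by splicing of its messenger RNA, and ATF6 switch on chaperones and the machinery that exports misfolded protein for degradation, while the PERK arm acts through ATF4 and can induce Ddit3. Hepatocytes secrete most plasma proteins and carry a large ER.

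The ER stress response element (ERSE), at which ATF6 and XBP1 are known to act in the Hspa5 promoter, was searched for in the promoters, because it is shared by genes that this response turns on. RefSeq promoters (GRCm38.p6, from 250 bases before to 50 after the start site) were at hand for 8 of the 10 genes, not for Hyou1 and Manf. The element was searched on both strands as CCAAT, 9 bases and CCACG, and 3 of the 8 promoters held it, against 39 of all 32851 promoters (0.119%). It lay at bases 65 to 47 before the start site in Hspa5, and on the opposite strand at bases 156 to 138 in Derl3 and 126 to 108 in Creld2. The shorter CCACG, which is part of the ERSE, was in 6 of the 8 promoters and in 32.8% of all promoters. Those 6 were Creld2, Derl3, Dnajb9, Hspa5, Pdia4 and Sdf2l1. The XBP1 core TGACGTGG, which overlaps CCACG on its other strand (0.676% of all promoters), and the core TGATGCAA of the amino acid response element (0.895%) were in none of the 8. Neither Ddit3 nor Xbp1 held any of these letters other than CCAAT, which Ddit3 had. The promoters of the 3 genes with an ERSE are shown with that element in capitals, and that of Sdf2l1, which followed Derl3 on the liver arrays without a full ERSE in this window, with its 3 CCACG matches in capitals. They lie on chr10:75893148-75893447 (Derl3, plus strand), chr15:88819396-88819695 (Creld2, plus), chr2:34771840-34772139 (Hspa5, plus) and chr16:17132334-17132633 (Sdf2l1, minus).
Derl3: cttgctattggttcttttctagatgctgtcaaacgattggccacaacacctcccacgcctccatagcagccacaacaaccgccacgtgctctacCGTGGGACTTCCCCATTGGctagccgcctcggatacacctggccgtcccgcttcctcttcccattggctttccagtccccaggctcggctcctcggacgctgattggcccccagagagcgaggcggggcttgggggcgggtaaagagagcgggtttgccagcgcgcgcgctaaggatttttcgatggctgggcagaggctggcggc
Creld2: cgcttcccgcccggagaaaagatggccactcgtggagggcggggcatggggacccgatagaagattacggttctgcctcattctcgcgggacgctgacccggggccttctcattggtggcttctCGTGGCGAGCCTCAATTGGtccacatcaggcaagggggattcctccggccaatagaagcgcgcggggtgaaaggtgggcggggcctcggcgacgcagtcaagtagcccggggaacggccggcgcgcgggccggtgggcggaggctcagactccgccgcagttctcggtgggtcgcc
Hspa5: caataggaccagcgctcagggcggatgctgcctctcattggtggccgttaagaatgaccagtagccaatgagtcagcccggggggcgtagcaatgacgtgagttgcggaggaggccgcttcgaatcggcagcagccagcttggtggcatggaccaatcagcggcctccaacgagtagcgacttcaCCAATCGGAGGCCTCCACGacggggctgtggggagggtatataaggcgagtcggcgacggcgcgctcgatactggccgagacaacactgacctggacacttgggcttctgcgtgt
Sdf2l1: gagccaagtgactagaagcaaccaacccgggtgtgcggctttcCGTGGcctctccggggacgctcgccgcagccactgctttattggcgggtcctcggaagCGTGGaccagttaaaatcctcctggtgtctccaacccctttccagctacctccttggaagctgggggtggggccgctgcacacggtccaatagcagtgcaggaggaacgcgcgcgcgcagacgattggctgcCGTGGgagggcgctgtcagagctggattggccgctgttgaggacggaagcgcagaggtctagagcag

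Array medians lay between 6.76 and 6.92, and arrays of a group correlated at 0.985 to 0.997. Hepatocyte markers averaged 13.0 to 13.1 on liver arrays, kidney tubule markers 11.7 to 11.9 on kidney arrays and neuron and glia markers 11.05 to 11.27 on brain arrays, each above its mean on every array of the other tissues. Liver pools A and B of HCD+Sim stood apart in markers of pancreas acinar cells, as given beside Derl3 below. In liver the 10 genes varied more between arrays of a group than genes did in general, with a median standard deviation (SD) of 0.176 against 0.113 over all genes. In kidney it was 0.0716 against 0.0818 and in brain 0.0838 against 0.0932. Pool C lay between pools A and B in 5 of 50 liver values of these genes, above both in 31 and below both in 14, although it is their mixture. It lay between them in 16 of 50 values in kidney (above both in 25) and in 9 of 50 in brain (above both in 31). The share over all genes was not counted. Values are the authors' log2 expression values, so a difference of 1 is a doubling, and levels were compared only within a probe set.

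Between tissues on the Control diet, 8 of the 10 genes were higher in liver than in brain, 4 were higher in liver than in kidney, and 3 were higher in kidney than in brain. A gene counted as called at a log2 difference over 0.7 with an adjusted p of at most 0.05 (limma, Benjamini-Hochberg over all genes), and no gene of the 10 was called lower in the first tissue of a pair. The background was large, because tissues differ in much. Over all genes 32.7% were called between liver and brain (15.5% higher in liver), 16.8% between liver and kidney (6.78% higher in liver) and 30% between kidney and brain (15.7% higher in kidney). By the adjusted p alone, 9, 8 and 7 of the 10 passed in these comparisons, against 70%, 48.4% and 59.1% of all genes.

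Xbp1, the transcription factor of the IRE1 arm, differed between all 3 tissues. Its Control arrays read 10.58, 10.57 and 10.53 in liver, 9.71, 9.47 and 9.77 in kidney, and 9.02, 8.78 and 8.90 in brain. No liver array overlapped a kidney array, and no kidney array overlapped a brain array, over all 5 diets. Liver was above kidney by 0.91 (standard error (SE) 0.07, adjusted p = 2.83e-15) and above brain by 1.66 (adjusted p = 4.73e-24), and kidney was above brain by 0.75 (adjusted p = 4.08e-13). Without Control pool B of brain or pool C of kidney the last difference was 0.69, below the fold change threshold. Ern1, which encodes the enzyme that splices Xbp1, was also higher in liver than in kidney (1.23, adjusted p = 6.36e-19) and than in brain (2.41, adjusted p = 5.35e-29). The probe set of Xbp1 does not tell the spliced from the unspliced messenger RNA.

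Pdia4, a disulfide isomerase of the ER lumen, also differed between all 3 tissues and had the largest difference to brain of the 10 genes. Its Control arrays read 10.40, 10.19 and 10.54 in liver, 9.45, 9.51 and 9.61 in kidney, and 8.07, 8.09 and 8.01 in brain. The 3 tissues did not overlap on any diet, and liver exceeded brain by 2.32 (SE 0.09, adjusted p = 6.28e-24). Sdf2l1, a partner of ER chaperones, was called in liver against both other tissues, by 1.33 over kidney (SE 0.13, adjusted p = 1.80e-11) and by 1.40 over brain (adjusted p = 1.86e-12), while kidney and brain differed by 0.08 (adjusted p = 0.646). Creld2, a secreted ER protein, was at 8.62 ± 0.53 (SD, n = 3 arrays) in liver, 8.23 ± 0.02 in kidney and 7.16 ± 0.05 in brain. Its differences to brain were called, 1.46 for liver (adjusted p = 1.03e-10) and 1.06 for kidney (adjusted p = 1.53e-07), while liver and kidney overlapped and differed by 0.39 (adjusted p = 0.0357). Hspa5 (BiP, the main chaperone of the ER lumen) was 1.14 higher in liver than in brain (adjusted p = 1.55e-11), Hyou1, a chaperone that works with BiP, 1.16 (adjusted p = 1.09e-10), and Manf, a secreted protein of stressed ER, 0.90 (adjusted p = 2.37e-11).

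Dnajb9, a co-chaperone of BiP, and Ddit3 (CHOP, the factor tied to cell death in prolonged ER stress) were called in none of the 3 tissue comparisons. Dnajb9 was 0.43 higher in liver than in brain (adjusted p = 0.00545) and 0.21 higher than in kidney (adjusted p = 0.203). Ddit3 ran the other way, with 7.34 ± 0.12 in liver, 7.31 ± 0.13 in kidney and 7.55 ± 0.11 in brain, and kidney was 0.25 below brain (adjusted p = 0.0486). Derl3 was called higher in liver than in kidney (0.99, adjusted p = 2.19e-04) and than in brain (0.88, adjusted p = 5.01e-04), but its liver Control arrays read 7.86, 6.75 and 8.42. Pool B of liver thus lay inside the range of kidney, and without pool C the differences were 0.62 and 0.51 and were no longer called. Other ER genes were also higher in liver than in brain. Of 31 ER luminal chaperones and folding enzymes, 7 of them among the 10, 22 were called higher in liver than in brain and none lower. Of 22 genes of ER-associated degradation 14 were called higher, led by Edem1 (3.18, adjusted p = 8.82e-28), which delivers misfolded glycoproteins to degradation.

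**Figure D1:**
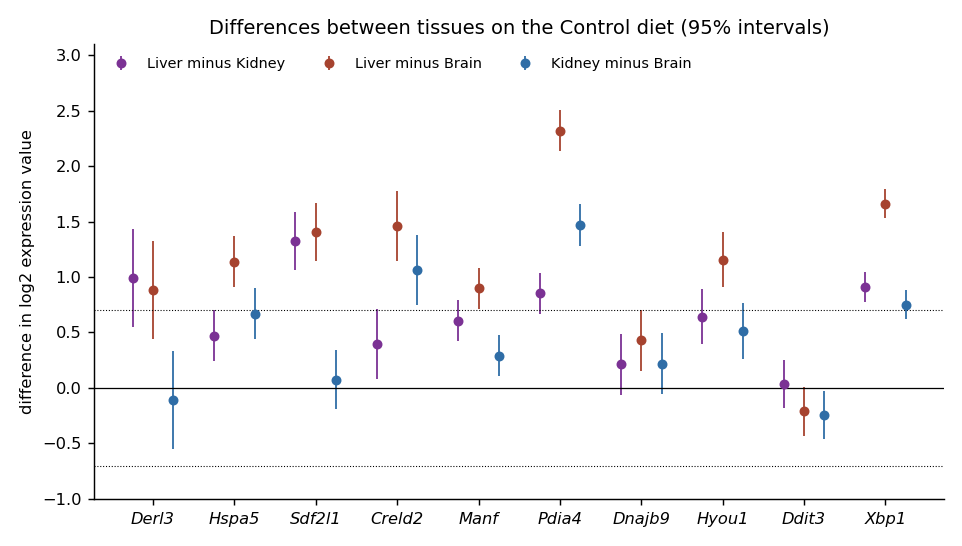
Difference in log2 expression value (y axis) between tissues on the Control diet for each of the 10 genes (x axis). Points are the differences of 3 against 3 arrays, bars their 95% intervals from the fit, and dotted lines the threshold of 0.7 in each direction. Pdia4 and Xbp1 show the widest gaps between liver and brain, 2.32 and 1.66, and Ddit3 is the gene with both brain comparisons below 0.

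Derl3 encodes a membrane protein that passes misfolded proteins out of the ER lumen, and in liver it was higher under HCD+Gl-1 and HCD+Sim than under HCD. Liver pools A, B and C read 7.57, 6.83 and 7.67 in HCD, 8.62, 8.82 and 8.45 in HCD+Gl-1, and 8.64, 8.57 and 8.60 in HCD+Sim. Every array of both treated groups lay above every HCD array. HCD+Gl-2 read 7.96, 7.47 and 8.32 and overlapped HCD, as did Control. Derl3 exceeded HCD by 1.27 under HCD+Gl-1 and by 1.24 under HCD+Sim (SE 0.22 each). These are the values by which the genes were chosen, so no test is given for them. Derl3 was the 1 member past the thresholds in either comparison, against 0.163% of all genes for HCD+Gl-1 and 0.258% for HCD+Sim, and nothing is read from that count.

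The spread of Derl3 between arrays differed by group. Its SD was 0.85 in liver Control, 0.46 in HCD and 0.43 in HCD+Gl-2, against 0.19 in HCD+Gl-1 and 0.04 in HCD+Sim. Pool B was the lowest liver array in every group but HCD+Gl-1, where it was the highest. Control pool C (8.42) came within 0.03 of the lowest HCD+Gl-1 array (8.45). A mixture of Control pools A and B would read 7.41, so pool C was 1.01 above it. Without HCD pool B the differences to HCD were 1.01 for HCD+Gl-1 and 0.98 for HCD+Sim. In the fit on the 15 liver arrays alone, where the spread was estimated from liver, Derl3 passed the thresholds in neither comparison. Over the 15 groups the order of the mean level was HCD+Gl-1 and HCD+Sim in liver (8.63 and 8.60), then HCD+Gl-2, Control and HCD in liver (7.92, 7.68 and 7.36), and then the 10 groups of kidney and brain between 6.53 and 6.80. The only neighbours in this order with no overlap of arrays were HCD+Sim and HCD+Gl-2 in liver.

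**Figure D2:**
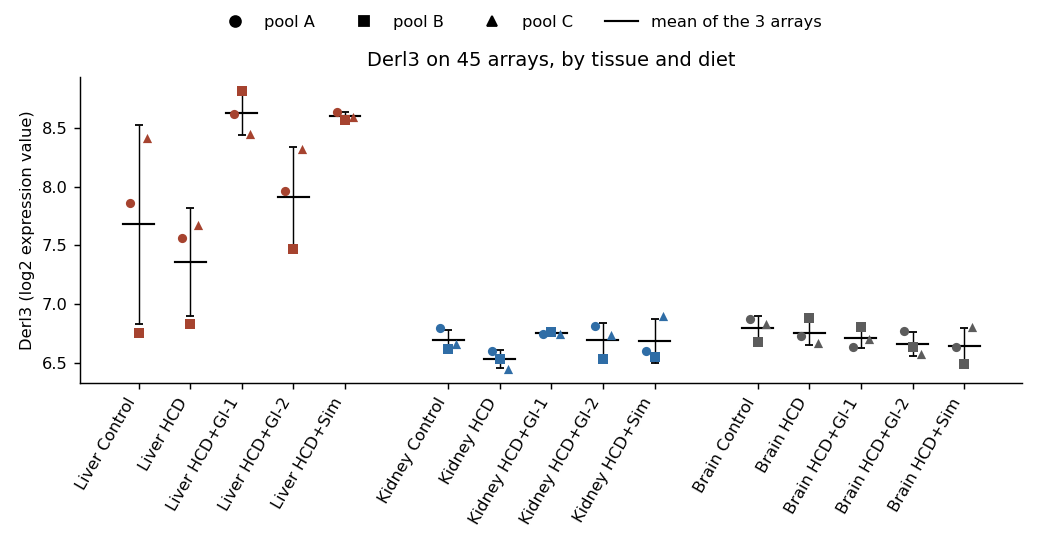
Derl3 log2 expression value (y axis) on each of 45 arrays by tissue and diet (x axis), with circles for pool A, squares for pool B and triangles for pool C. Horizontal lines are means of 3 arrays and bars ± 1 SD. The liver arrays of HCD+Gl-1 and HCD+Sim sit between 8.45 and 8.82, the other liver arrays spread from 6.75 to 8.42, and no kidney or brain array is above 6.90.

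Among the other genes in liver, Sdf2l1, Pdia4, Hyou1 and Creld2 had higher means under HCD+Gl-1 and HCD+Sim than under HCD, and the other 5 had means near that of HCD. Both comparisons share the HCD arrays, so a low HCD array raises both differences. In Sdf2l1, pools A, B and C read 8.05, 7.91 and 8.29 in HCD, 8.78, 8.65 and 8.41 in HCD+Gl-1, and 8.64, 8.63 and 8.54 in HCD+Sim. Both treated groups lay wholly above HCD, with differences of 0.53 and 0.52 (SE 0.13). In Pdia4, HCD read 10.41, 10.13 and 10.50, HCD+Gl-1 10.72, 10.54 and 10.76, and HCD+Sim 10.65, 10.57 and 10.63. Again neither treated group overlapped HCD, at smaller differences of 0.33 and 0.27 (SE 0.09). Hyou1 read 9.87, 9.51 and 10.07 in HCD and 10.26, 10.16 and 10.49 in HCD+Sim, a difference of 0.49 (SE 0.12). Under HCD+Gl-1 it read 10.15, 10.15 and 10.04, which overlapped HCD. Creld2 read 8.35, 7.84 and 8.69 in HCD, 8.88, 8.59 and 8.94 in HCD+Gl-1, and 8.72, 8.47 and 8.90 in HCD+Sim, so both treated groups were higher on average (0.51 and 0.41, SE 0.16) and both overlapped HCD.

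Hspa5, Manf, Dnajb9, Ddit3 and Xbp1 stayed within 0.20 of HCD on average in both comparisons. Hspa5 differed by -0.04 under HCD+Gl-1 and by less than 0.01 under HCD+Sim (SE 0.11), and its 15 liver arrays ran from 10.9 to 11.6. Of the genes with an ERSE in the promoters printed above, Hspa5 thus stayed near HCD on average, and Derl3 and Creld2 were above it. Sdf2l1 and Pdia4, which had no full ERSE in the window searched, were also above HCD. Whether the ERSE had a part in these differences was not tested. Xbp1 had the smallest range of the 10, between 10.51 and 10.65 on all liver arrays. Dnajb9 was below HCD by 0.20 under HCD+Sim, with 9.35, 9.38 and 9.20 against 9.47, 9.59 and 9.46 and no overlap. Its pool C under HCD+Gl-1, at 10.14, was far above pools A and B (9.40 and 9.17). As a description of comparisons that chose the genes, 3 of the 10 had an adjusted p up to 0.05 under HCD+Gl-1 (2.48% of all genes) and 3 under HCD+Sim (1.1% of all genes), and nothing is read from these counts.

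**Figure D3:**
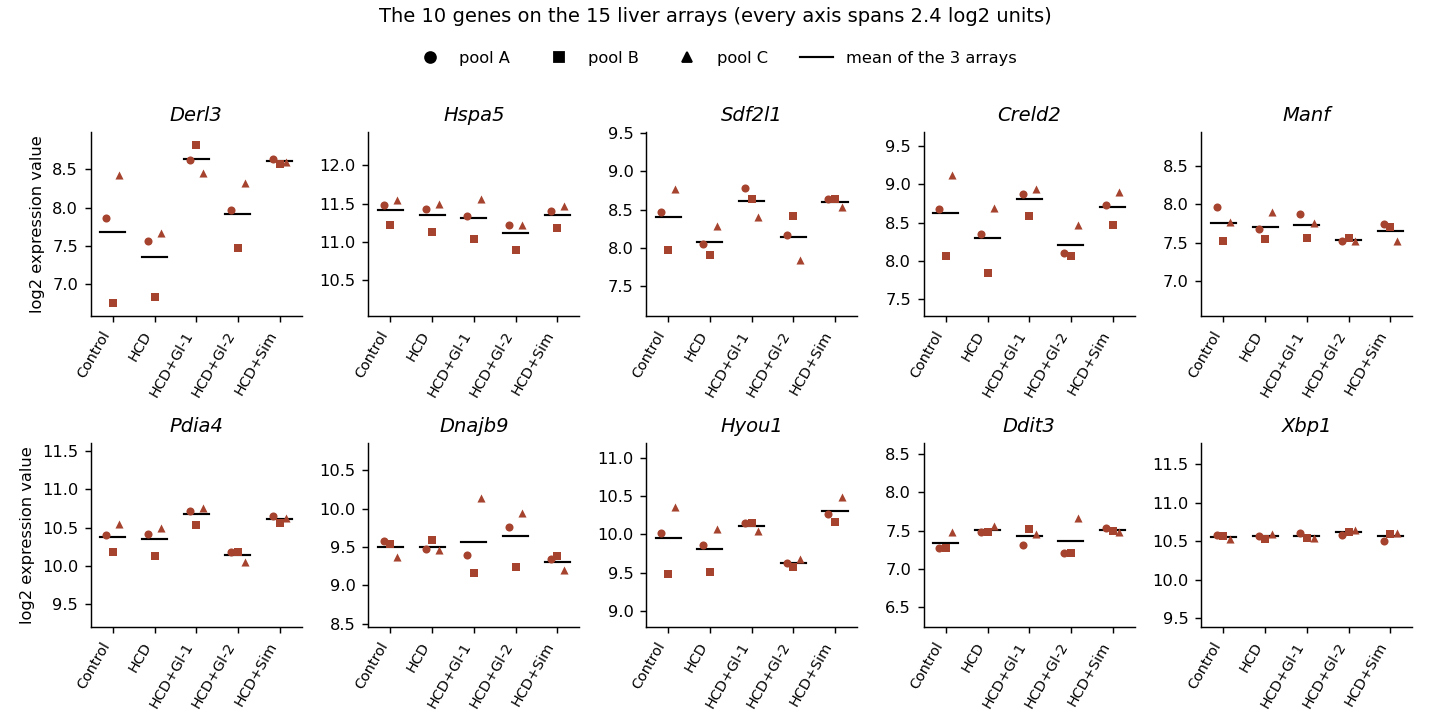
Log2 expression value (y axes, each spanning 2.4 units) of the 10 genes on the 15 liver arrays, by diet (x axes). Circles, squares and triangles are pools A, B and C, and lines are means. Pool B is the lowest array of HCD in 9 of the 10 genes, of Control in 7, and of each group with an added agent in 5. Xbp1 is flat between 10.51 and 10.65.

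Of 33 pancreas acinar markers, 11 in pool A and 13 in pool B of liver HCD+Sim were more than 1 above their mean in Control and HCD. In pool C it was 0 of 33. Derl3 is known to be high in secretory cells such as those of the pancreas. Over 33 measured acinar markers the mean level was 5.73 to 5.95 on the 12 liver arrays of Control, HCD, HCD+Gl-1 and HCD+Gl-2. In HCD+Sim it was 6.59 in pool A, 6.91 in pool B and 5.98 in pool C. The digestive enzyme gene Ctrb1 read 9.14, 9.69 and 6.95 there against 6.71 to 6.81 in HCD, and 13 of the 33 markers were called higher than in HCD. A mixture of pools A and B would lie between them, but pool C lay far below both in Ctrb1. What pool C of HCD+Sim holds is therefore uncertain. Derl3 read 8.64, 8.57 and 8.60 on the HCD+Sim arrays, and with HCD+Sim pools A and B left out its difference to HCD was 1.24. That difference rests on 1 simvastatin array, and the part of acinar cells in the values of Derl3 and the other genes under HCD+Sim was not tested. In HCD+Gl-1 no acinar marker was more than 1 above its mean in Control and HCD. Over 13 plasma cell and B cell markers, another secretory cell type, the mean level was 5.74 to 5.88 in HCD+Gl-1, 5.93 to 6.07 in HCD+Sim, 5.83 to 5.87 in HCD and 5.95 to 6.05 in Control, with none called in any diet comparison. In whole tissue, a change in the number of cells of a type and a change in RNA per cell cannot be told apart.

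**Figure D4:**
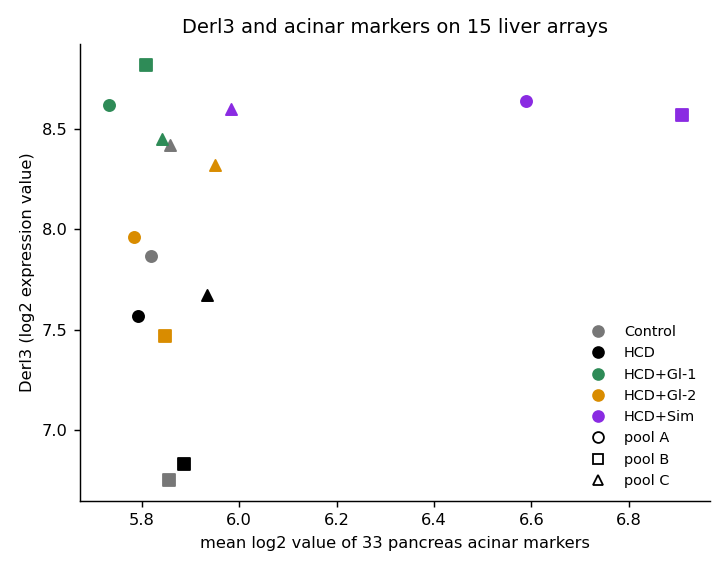
Derl3 log2 expression value (y axis) against the mean log2 value of 33 pancreas acinar markers (x axis) on the 15 liver arrays, with colours for the diet and shapes for the pool. Simvastatin pools A and B lie far to the right at marker levels of 6.59 and 6.91, with Derl3 at 8.64 and 8.57. Simvastatin pool C, whose content is uncertain, lies at 5.98 with Derl3 at 8.60. The 3 HCD+Gl-1 arrays lie at 5.73 to 5.84 with Derl3 at 8.45 to 8.82. The part of acinar cells in Derl3 was not tested.

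The 2 extracts were compared on arrays of which those of HCD+Gl-1 also entered the choice of genes, so the p-values of this comparison are a description. In 4 genes, Pdia4, Hyou1, Creld2 and Sdf2l1, liver was lower under HCD+Gl-2 than under HCD+Gl-1 by the adjusted p. HCD+Gl-2 read 10.19, 10.18 and 10.05 in liver for Pdia4, wholly below HCD+Gl-1 by 0.53 (SE 0.09, 95% interval -0.72 to -0.35, adjusted p = 8.13e-04). Creld2 read 8.10, 8.06 and 8.47 and was lower by 0.59 (adjusted p = 0.0265), and Hyou1 read 9.63, 9.58 and 9.67 and was lower by 0.49 (adjusted p = 0.0226), neither with any overlap. Sdf2l1 was lower by 0.47 (adjusted p = 0.0338), with 1 HCD+Gl-2 array (8.42) above the lowest of HCD+Gl-1 (8.41). These 4 genes had an adjusted p of at most 0.05, against 3.94% of all genes, and none of the 10 passed the fold change threshold as well, against 0.172%. With the pool letter as a replicate block 1 passed both, Derl3, which was 0.71 lower under HCD+Gl-2 and gets no test because the HCD+Gl-1 arrays chose it. Without HCD+Gl-2 pool C, 2 passed both, Derl3 (-0.91) and Creld2 (-0.72). The fit on liver arrays alone gave the 4 genes adjusted p-values of 0.118 to 0.316. Genes of other programmes differed between the same arrays. Of 12 cytosolic heat shock genes 3 were called higher under HCD+Gl-2, with a mean of 9.37 to 10.3 per array against 9.44 to 9.65. Of 10 circadian repressors and outputs 1 was called higher, Per1 (0.81, adjusted p = 0.00144), with a mean of 9.45 to 9.52 against 8.92 to 9.35. The part of either in these differences was not tested. Manf was lower by 0.20 without overlap (adjusted p = 0.207), and Hspa5 by 0.19 (adjusted p = 0.349).

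Against HCD, no gene of the 10 was called under HCD+Gl-2 in liver (0.303% of all genes), and 2 of the 9 genes other than Derl3 had an unadjusted p under 0.05. These were Hspa5 (-0.23, SE 0.11, adjusted p = 0.396) and Pdia4 (-0.21, SE 0.09, adjusted p = 0.318). Derl3 was 0.56 higher on average, but the arrays of the 2 groups overlapped. The 10 genes ran from -0.23 to 0.56 with a median of -0.11, while the median over all genes was 0.01.

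Cholesterol in the diet alone gave no called gene of the 10 in liver (0.245% of all genes), with 2 at an unadjusted p under 0.05. These were Sdf2l1, lower than Control by 0.32 (95% interval -0.58 to -0.06, adjusted p = 0.316), and Creld2, lower by 0.33 (-0.64 to -0.01, adjusted p = 0.464). Sdf2l1 read 8.47, 7.98 and 8.77 in Control, which spans all 3 HCD arrays but the lowest. Ddit3 read 7.27, 7.27 and 7.48 in Control against 7.49, 7.48 and 7.56 in HCD, a difference of 0.17 (adjusted p = 0.655). Its arrays did not overlap, but the share of all genes without overlap was not counted, so nothing is read from that. Without Control pool B, Derl3 was 0.78 lower in HCD and past both thresholds, again without a test, as HCD is among the groups that chose it.

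Against Control rather than HCD, the differences of Derl3, Sdf2l1, Creld2, Pdia4 and Hyou1 under HCD+Gl-1 and HCD+Sim were smaller, and those of Hspa5 and Ddit3 were not. Derl3 alone, given as a description, was past both thresholds, 0.95 higher under HCD+Gl-1 (0.322% of all genes) and 0.92 higher under HCD+Sim (0.358%), and under HCD+Gl-2 no gene was called (0.584%), with 5 at an unadjusted p under 0.05. Without Control pool B the 2 differences of Derl3 were 0.49 and 0.46 and below the threshold. Pdia4 exceeded Control by 0.30 under HCD+Gl-1 (SE 0.09, adjusted p = 0.0637), with overlap, and by 0.24 under HCD+Sim (adjusted p = 0.249), without overlap, close to its differences to HCD. Sdf2l1, Creld2 and Hyou1 exceeded Control by 0.21, 0.18 and 0.16 under HCD+Gl-1 (adjusted p = 0.420, 0.591 and 0.536), within the spread of the Control arrays. Hyou1 was 0.35 above Control under HCD+Sim (adjusted p = 0.177) and 0.32 below it under HCD+Gl-2 (adjusted p = 0.189).

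**Figure D5:**
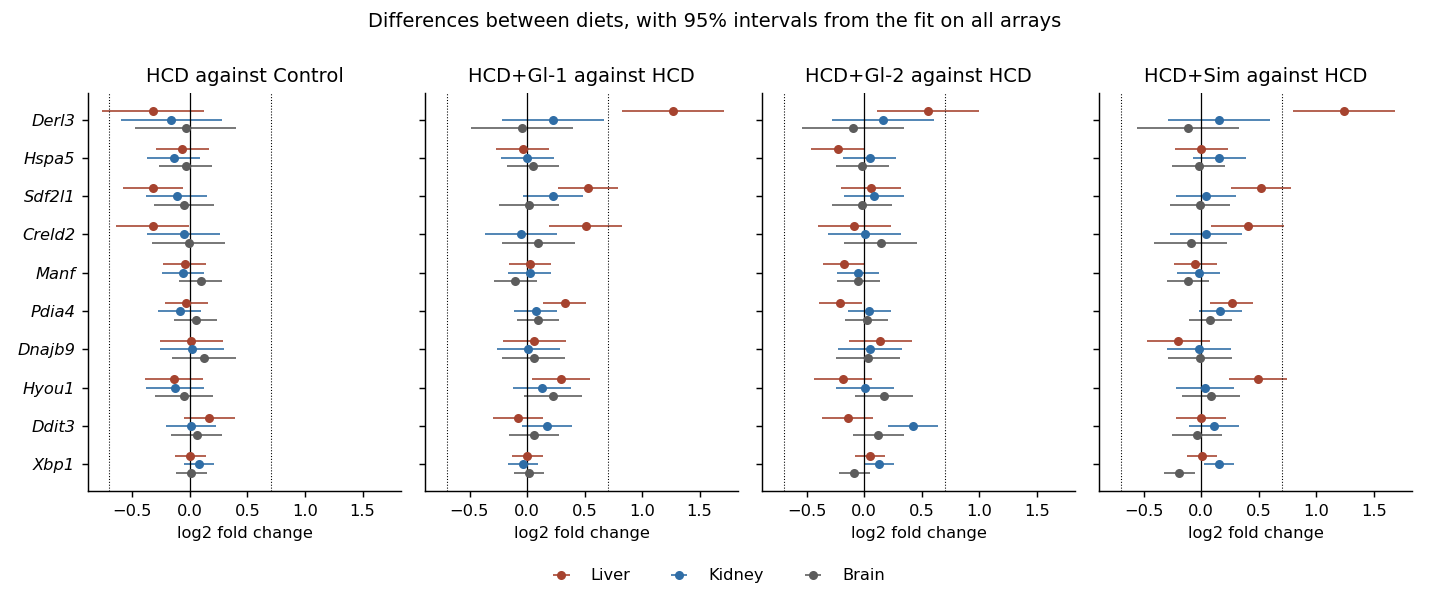
Log2 fold change (x axes) of the 10 genes (y axis) in 4 diet comparisons, with red for liver, blue for kidney and grey for brain. Points are differences of 3 against 3 arrays, bars 95% intervals from the fit on all arrays, and dotted lines the threshold of 0.7. Derl3 in liver is the only gene beyond the dotted line, at 1.27 and 1.24, and Ddit3 in kidney under HCD+Gl-2 stands at 0.43.

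Across the 15 liver arrays, Derl3 varied with Hyou1 (Pearson r = 0.79), Creld2 (0.76), Sdf2l1 (0.72) and Pdia4 (0.69), and less with Ddit3 (0.37), Hspa5 (0.25), Manf (0.22), Xbp1 (0.02) and Dnajb9 (-0.12). These are descriptions of arrays that share diets and pools. After the group means were taken out, the values were 0.89 for Hyou1, 0.83 for Creld2, 0.60 for Pdia4 and 0.52 for Sdf2l1. Hspa5 (0.54), Ddit3 (0.56) and Manf (0.47) then came close to Sdf2l1, while Xbp1 (0.04) and Dnajb9 (-0.04) did not. Pool B was the lowest array in 9 of the 10 genes in liver HCD and in 7 of the 10 in liver Control. In each liver group with an added agent it was the lowest in 5 of the 10. The share of all genes with pool B lowest is not given, so nothing is read from these counts. Hspa5 was most like Bcl6 (0.93) and Sec24d (0.92), a coat protein gene of vesicles that leave the ER, and then Usp38, Dclre1b and Hspa13 (0.90 to 0.91). The genes most like Derl3 in liver were Prl8a9, Acot8, Wdfy3, Ptma and Vmn2r86 (0.80 to 0.85), and Hyou1 ranked 6 among all genes. In kidney Hspa5 ran with Pdia4 (0.84), Tns1, Copa, Slc6a6 and Dpyd (0.83 to 0.86), and in brain most closely with Calr (0.85), another ER chaperone, ahead of 4933440N22Rik, Acsbg2, Rnf114 and Ifnb1 (0.81 to 0.84). Derl3 ranged only from 6.45 to 6.90 in kidney and from 6.49 to 6.88 in brain, around or below the array medians of 6.76 to 6.92. It was most like Cyp11b2, Acot1, Ext1, Pla2g1b and Trmt1 in kidney (0.83 to 0.85). In brain it was most like Wipf2, AU019823, Top2a, Zfp592 and Snora23 (0.81 to 0.85). In each tissue such neighbours are the highest of the correlations with all 22080 genes over 15 arrays. They were not tested, and nothing is read from their names.

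In kidney none of the 10 genes was called on any diet. The share of all genes called was 0.0408% for HCD against Control, 0.131% for HCD+Gl-1, 0.335% for HCD+Gl-2 and 0.14% for HCD+Sim against HCD, and 0, 0, 1 and 1 of the 10 had an unadjusted p under 0.05. Ddit3 came nearest. It read 7.38, 7.19 and 7.37 in HCD and 7.64, 7.57 and 8.01 in HCD+Gl-2, with no overlap. The difference was 0.43 (SE 0.11, 95% interval 0.21 to 0.65, adjusted p = 0.0359), past the adjusted p as were 0.996% of all genes, and below the fold change threshold. Without HCD+Gl-2 pool C it was 0.29, and in the fit on kidney arrays alone the adjusted p was 0.0558.

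Other stress genes rose on those kidney arrays. Atf3, a transcription factor induced by many stresses, read 6.36, 6.46 and 6.44 in HCD and 8.02, 7.46 and 7.91 in HCD+Gl-2. It rose by 1.37 (SE 0.14, adjusted p = 1.19e-08). Atf3 is also a target of the PERK arm. The mean of 21 targets of PERK and ATF4, Atf3 among them, was 7.51 to 7.65 in HCD+Gl-2 and 7.34 to 7.42 in HCD. Atf3 itself raises that mean, and it alone of the 21 was called. The median difference of the 21 was 0.09 (all genes 0.01), with 16 above HCD. Of 12 cytosolic heat shock genes 3 were called higher and none lower, Hspa1a, Dnajb1 and Hspa1b (1.32, 1.25 and 1.08), of which Hspa1a and Hspa1b are near-identical copies whose signals cannot be separated with certainty. Their 12-gene mean was 10.0 to 10.5 in HCD+Gl-2 and 9.78 to 9.86 on the 12 other kidney arrays. Hspa5 in the same arrays differed from HCD by 0.05 (95% interval -0.18 to 0.28, adjusted p = 0.977). In liver under HCD+Gl-2, Atf3 also rose, by 1.00 (adjusted p = 2.98e-05), while Ddit3 read 7.21, 7.21 and 7.67 against 7.49, 7.48 and 7.56 in HCD (-0.14, adjusted p = 0.644). Whether the heat shock genes had a part in the level of Ddit3 was not tested.

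Kidney Derl3 and Sdf2l1 were lowest in HCD. Derl3 read 6.60, 6.54 and 6.45 in HCD, below all Control arrays (6.79, 6.62 and 6.66) and all HCD+Gl-1 arrays (6.75, 6.77 and 6.74), by 0.16 and 0.22. Sdf2l1 showed the same, by 0.12 and 0.23. The adjusted p was 1.00 in each case, so these gaps did not pass the test. Xbp1 was higher than HCD without overlap under HCD+Sim (0.16, adjusted p = 0.697) and under HCD+Gl-2 (0.13, adjusted p = 0.576).

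In brain the 10 genes differed by -0.19 to 0.23 in the 4 diet comparisons, and none was called. At an unadjusted p under 0.05 there was 1, Xbp1 under HCD+Sim. Of all genes 0.0317% were called for HCD against Control, 0.00906% for HCD+Gl-1, 0.0226% for HCD+Gl-2 and 0% for HCD+Sim against HCD. The lowest adjusted p among the 10 was 0.660, for Xbp1 under HCD+Sim, which read 8.76, 8.72 and 8.68 against 8.93, 8.84 and 8.96 in HCD. Hyou1 read 8.74, 8.74 and 8.76 in HCD and was higher without overlap under HCD+Gl-1 (8.92, 8.85 and 9.14), HCD+Gl-2 (8.87, 8.78 and 9.10) and HCD+Sim (8.81, 8.81 and 8.87). These comparisons share the HCD arrays, and the adjusted p of Hyou1 was 0.932 under HCD+Gl-1.

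The difference between liver and kidney responses was tested in the same fit. None of the 10 genes was called for the response to HCD (0.149% of all genes; 0 at an unadjusted p under 0.05) or for the response to HCD+Gl-2 (0.326%; 1 at an unadjusted p under 0.05). That 1 was Ddit3, whose response to HCD+Gl-2 was 0.57 lower in liver than in kidney (SE 0.15, 95% interval -0.88 to -0.26, adjusted p = 0.0778). Without liver HCD+Gl-2 pool C, where Ddit3 read 7.67, it was 0.72 lower with an adjusted p of 0.00599.

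Lists of the wider pathway are given beside the low background of the diet comparisons, in which at most 0.584% of all genes were called. Of 13 sensors and transcription factors of the response, of 31 luminal chaperones and of 24 genes of ER translocation and vesicle transport, none was called in any diet comparison within a tissue. Of 22 degradation genes Derl3 alone was past the thresholds, in comparisons that rest on the values by which it was chosen, so its count is a description. As a description, 26 of the 31 chaperones, which include 7 of the 10 genes, were above HCD in liver under HCD+Gl-1. Their median difference was 0.16 (median of all genes -0.01). Under HCD+Sim 23 were above HCD, with a median of 0.07 (all genes 0.03), and under HCD+Gl-2 9, with -0.08 (all genes 0.01). In brain 25 were above HCD under HCD+Gl-1 and 24 under HCD+Gl-2, with medians of 0.04 and 0.03 (all genes 0.02). Nothing is read from these counts. Between the extracts, 5 of the 31 were higher under HCD+Gl-2, with a median of -0.22. Of 21 targets of PERK and ATF4, Atf3 was called higher under HCD+Gl-2 in liver and kidney. Asns, an ATF4 target for asparagine synthesis, was called lower in liver HCD+Gl-1 than in Control (-0.78, adjusted p = 0.0198), and was -0.62 and not called without Control pool B. Its liver mean was 7.39 in Control, 6.69 in HCD and 6.61 in HCD+Gl-1, so most of that gap was present in HCD without the extract.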

How the data were processed

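RNA of liver, kidney and brain was pooled and hybridized to mouse gene st v1.0 arrays. The deposited values are on the log2 scale. To make them, the authors ran background correction (RMA) and quantile normalization in oligo, reduced a batch effect with ComBat, whose batches the methods do not name, and chose 1 probe set per gene, that of the widest interquartile range. Of the 22080 genes listed, 13 have date-like names, a spreadsheet error. These were tested and are not named. Tissue, diet and pool letter were taken from the sample titles; a description field that names brain for liver and kidney samples too goes against the titles, the source names and the tissue markers, and was not used. Arrays carry no read depth, and 3 arrays per group limit the precision. An exact two-sided permutation test of 3 against 3 arrays cannot give a p under 0.1.

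All 15 group means were fitted to the 45 arrays with limma 3.58.1 in R 4.3.3 (residual degrees of freedom 30, prior 7.34). P-values were Benjamini-Hochberg adjusted over all genes within a comparison, and all adjusted p-values come from this fit unless another is named. Calls used the thresholds of the methods, an absolute log2 difference above 0.7 together with an adjusted p up to 0.05. The fit was tested on simulated data. The members and lists were chosen with earlier results of these data known. Named are the 10 members, up to 3 called genes in each direction per pathway list, and the 5 genes most correlated with Derl3 and with Hspa5 in each tissue, of which the leading ones are given. Markers of other cell types are named by the same rule. Same-lettered pools of compared groups deviated together by correlations of -0.27 to 0.27, over 0.1 for every letter in 1 of 16 comparisons (liver HCD+Gl-2 against HCD+Gl-1), beside which the blocked value is given. Alternatives were each array left out, fits restricted to 1 tissue or to the groups compared, pools A and B without C, a replicate block, the loss of dim genes, quantile normalization repeated per tissue, moderation with trend and robust settings, and calls by adjusted p alone. Leaving out liver pools B of Control and HCD, or simvastatin pools A and B, was added after seeing the data. Promoter sequences came from RefSeq tables of GRCm38.p6.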

Additional observations from a re-analysis of the deposited data

Results flagged for a closer look

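Creld2 under HCD+Sim had opposite signs in liver and brain. All 3 liver arrays of HCD+Sim lay above the mean of liver HCD, and all 3 brain arrays lay below the mean of brain HCD. The arrays of HCD+Sim and HCD overlapped in each of these tissues. They ran from 8.47 to 8.90 against 7.84 to 8.69 in liver, and from 6.98 to 7.13 against 7.09 to 7.235 in brain. The mean difference to HCD was 0.41 in liver and -0.09 in brain, so that the response in liver minus that in brain was 0.50 on the log2 scale. This difference was not tested, since the liver comparison was among those by which the genes were chosen.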

How the results depend on the processing

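The calls of Derl3 depended on where the spread was estimated. With the 15 liver arrays alone, 0 of the 10 genes were called in HCD+Gl-1 and in HCD+Sim against HCD or against Control, where the fit on all arrays called 1 each. With the compared groups alone the count was 0 in HCD+Sim against HCD and in both comparisons with Control. Pools A and B alone gave 2 in HCD+Gl-1 against HCD. In HCD+Gl-2 against HCD+Gl-1 the count rose from 0 to 1 with the replicate block and with the filter on dim genes. The replicate block changed no other count. Without a fold change threshold the counts were 3 in HCD+Gl-1 and in HCD+Sim against liver HCD, 1 in kidney HCD+Gl-2, 4 in HCD+Gl-2 against HCD+Gl-1, 8 between liver and kidney and 7 between kidney and brain. Without pools B of liver Control and HCD the counts against Control were 0 for HCD+Gl-1 and HCD+Sim, and without simvastatin pools A and B that of HCD+Sim was 0, with the remaining array taken to vary like the other groups.

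With each array left out in turn, counts ran from 0 to 1 in liver HCD, HCD+Gl-1 and HCD+Sim against Control and in the liver minus kidney response to HCD+Gl-2, from 1 to 2 in HCD+Gl-1 against HCD, from 0 to 2 in HCD+Gl-2 against HCD+Gl-1, from 3 to 6 between liver and kidney, from 7 to 8 between liver and brain, and from 2 to 4 between kidney and brain. The array behind the lower count against Control was Control pool B, and for HCD+Sim also its pool C. Trend and robust moderation and renewed quantile normalization moved no count by over 1.5 times. Under these alternatives no difference with an adjusted p up to 0.05 changed its direction, while 83 of the 173 differences with a higher adjusted p did.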
